A study of Drosophila melanogaster with 40 samples.

Results

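The genes described here carry a name made of the letters CR and a number, which FlyBase gives to Drosophila melanogaster genes annotated as noncoding or as pseudogenes and not yet named for a function. They were taken from the deposited count table by that name, leaving out genes on chromosomes Y and 4 and also CR43857 and CR44003. This gave 2405 of the 17490 genes of the table. Of these, 751 had a mean of at least 1 CPM, counts scaled to a common library total, in larvae, in adult females or in adult males and entered the tests, among 13478 genes of the table that did. The other 1654 stayed below that level in each of the 3, and 33 had no count in any library. The levels nearest the limit were 1.0018, 1.0018 and 1.0019 CPM for CR44291, CR45466 and CR43419 just inside it, and 0.998, 0.997 and 0.988 CPM for CR44512, CR45502 and CR44458 just outside.

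Long noncoding RNAs are transcribed by RNA polymerase II and are usually capped and spliced like messenger RNAs, but they hold no long open reading frame. Some act as RNA, such as the roX RNAs of the dosage compensation complex on the male X chromosome, and some are read through to release microRNAs, whereas for most no function is known. In Drosophila the testis is known for the wide range of long noncoding RNAs transcribed in its germ cells, while nurse cells of the ovary transcribe many housekeeping genes at high levels.

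The study measured RNA of whole flies that express feline MYBPC3, the gene of cardiac myosin binding protein C, to model feline hypertrophic cardiomyopathy. The genotypes were A31P and R820W, which express the disease alleles, WT, which expresses the normal allele, and attP2, the line with the same docking site and no transgene. All 4 genotypes carried the TinCΔ4-Gal4 driver, which acts in the heart, so the attP2 controls share it. Each genotype was sampled as larvae and as adults of 1 week, exercised males, nonexercised males, exercised females and nonexercised females, with 2 replicates in each of the 20 groups. The labels give no sex for the larvae. Each transgene sits in 1 line, each library is a pool of whole animals, and nothing says that the replicates came from separate cultures, so p-values measure the spread between these libraries. Exercised males and exercised females were each sequenced on a lane of their own on a second flow cell, so that exercise and flow cell cannot be told apart. For the same reason sex and lane cannot be told apart in exercised adults. Larvae and nonexercised adults shared 1 flow cell and both of its lanes.

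The libraries held 18493813 to 26917796 gene counts each. The 8 larval markers summed to 26980 to 42562 CPM in larvae and to at most 458 CPM in adults. The 9 male germline markers found in the table summed to 1803 to 2467 CPM in exercised males and 1335 to 1932 CPM in nonexercised males, against 0 to 0.738 CPM in exercised females and 0.662 to 1.49 CPM in nonexercised females, and larvae held 128 to 524 CPM. The noncoding RNA roX1 had a median of 1626 CPM in exercised and 1439 CPM in nonexercised males, against 6.09 CPM in exercised and 20.9 CPM in nonexercised females. The 8 yolk, eggshell and female germline markers stood apart in 2 libraries of exercised males: they reached 43.1% of the exercised female median in A31P replicate 2 and 4.02% in R820W replicate 2, while the other 6 lay between 0.0823% and 0.138%. In nonexercised males, attP2 replicate 1 had 0.994%. Results on exercised males are therefore also given without those 2 libraries where this mattered. The 4 heart markers, tin, Hand, prc and Ork1, summed to 4.76 to 16.5 CPM in larvae, 19.4 to 43.4 CPM in males and 79.7 to 135 CPM in females.

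In the current Ensembl annotation 2391 of the 2405 genes were found, 2314 of them with the same start and end. Its gene symbols name 1756 as long noncoding RNAs, 451 as antisense RNAs, 2 as hairpin RNAs and 2 as small noncoding RNAs. Its gene types list 166 as pseudogenes and 14 as protein coding, the latter after their names were given. Their annotated span had a median of 701 bases, with quartiles at 472 and 1190 bases and a range of 93 to 239347 bases. On chromosome arms, 621 lie on 2L, 402 on 2R, 548 on 3L, 503 on 3R and 331 on X. No other gene of the table overlapped 1277 of them, 851 overlapped genes on the other strand only and 277 overlapped a gene on the same strand. Whether the reads were counted by strand is not given in the sources used here, so that reads of an overlapping member and of its partner cannot be told apart.

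The CR-numbered genes were most abundant in males. Their summed counts made up 0.857%, 0.893% and 0.955% of the library total in exercised males as lowest, median and highest value, and 0.741%, 0.793% and 0.840% in nonexercised males. In exercised females the share was 0.328%, 0.360% and 0.409%, and in nonexercised females 0.380%, 0.450% and 0.465%. Larvae had 0.445%, 0.498% and 0.584%. Each male library lay above each female and each larval library. Scaling the totals by TMM, the normalization of the tests, put larvae at 7108 CPM, beside 7219 CPM in exercised males, 7892 CPM in nonexercised males, 3618 CPM in exercised females and 3877 CPM in nonexercised females. By library totals alone larvae had 5018 CPM, exercised males 9020 CPM and nonexercised males 7884 CPM, so that the place of larvae and the order of exercised and nonexercised males depend on the scale. In whole animals, fewer cells of a type and less RNA per cell cannot be told apart in these values.

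By library totals, more members were found in males. A median of 1963.5 members had at least 1 count in exercised male libraries and 1872 in nonexercised males, against 912 in exercised females and 1025 in nonexercised females, with 1493.5 in larvae. At a mean of 1 CPM or more there were 697 members in exercised males and 615 in nonexercised males, against 138 in exercised females and 178 in nonexercised females, and 269 in larvae. At 100 CPM or more there were 11 members in either set of males, 4 in exercised females, 5 in nonexercised females and 5 in larvae. Of the 751 members tested, 444 had their highest mean in exercised males, 148 in nonexercised males, 36 in exercised females, 43 in nonexercised females and 80 in larvae. By the filter, 427 of the 751 (56.9%) reached 1 CPM in males alone, where 8.09% of all genes that passed did so, and 92 (12.3%) reached it in larvae, females and males alike, where 67.9% of all genes did. Members that passed through males alone had to differ between the sexes, so the shares in the following comparisons describe the 751 and not the 2405.

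A few abundant genes held much of the summed level. CR42862, CR40469, CR34335 and CR18854 together took 28.7% to 36.4% of the member counts in males and 48.8% to 69.6% in females and larvae. CR40469 is a transcript of 214 bases on X (122493 to 122706) and had a level per length, as deposited TPM, of 3081 ± 291 in exercised males, 2227 ± 326 in nonexercised males, 2875 ± 727 in exercised females, 5995 ± 765 in nonexercised females and 3825 ± 909 in larvae (SD, n = 8 each). In CPM it had 388, 481 and 616 as lowest, median and highest value in nonexercised males, against 903, 999 and 1242 in nonexercised females. The sets did not overlap, with a Log2FC of -1.01 ± 0.09 (SE, adjusted p = 3.16e-08, edgeR). Exercised males had 388, 444 and 521 CPM, against 670, 904 and 1042 CPM in exercised females (Log2FC -1.29 ± 0.08, adjusted p = 4.65e-09), while the TPM means of the exercised sets run the other way, so that the direction in exercised animals depends on the scale. Genes of at most 250 bases, which CR40469 is, were lower in males in 147 of 169 cases over the whole table in exercised animals (87.0%, against 35.2% of all genes) and in 56 of 169 in nonexercised animals (33.1%, against 33.9% of all genes), and the part of length in these values was not tested. CR42862 spans 6859 bases on 3L (224106 to 230964) and overlaps CG33229. It had 1282, 1474 and 1582 CPM in exercised males, against 259, 401 and 476 CPM in exercised females, with a Log2FC of 1.59 ± 0.10 (adjusted p = 4.40e-09). In nonexercised animals its sets overlapped, at 1121, 1328 and 1601 CPM in males and 780, 1087 and 1201 CPM in females. CR18854 overlaps IP3K1, an inositol kinase gene on 2L, and was at 295, 314 and 327 CPM in nonexercised males, against 133, 170 and 194 CPM in nonexercised females (Log2FC 1.01 ± 0.06, adjusted p = 1.94e-10).

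To ask how far the sexes differ, the 8 nonexercised male libraries were compared with the 8 nonexercised female libraries. Of the 749 members tested, 593 were higher and 76 lower in males, where a call needed a Log2FC beyond 0.5 in either direction with an adjusted p-value below 0.05. By the same rule 44.8% of all genes were higher and 33.9% lower. Beyond a Log2FC of 2, 484 members were higher and 40 lower, with 22.0% and 8.8% of all genes. The median Log2FC was 5.23 over the members and 0.27 over all genes tested. These counts rest partly on the filter, so narrower groups of members were also counted. Among the 267 members at 1 CPM or more in larvae, 61% were higher and 15% lower in males, against 39.4% and 37.0% of all genes at that level in larvae. Among the 92 members at 1 CPM or more in larvae, females and males, 27 were higher and 29 lower, 29.3% and 31.5%, where all such genes gave 27.6% and 45.9%. That group had to reach the limit in both sexes, so it leaves out members near 0 in either, which favors a more even split.

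Exercised animals gave the same comparison in libraries that the first did not use. Of 749 members, 635 were higher and 69 lower in exercised males than in exercised females, against 49.8% and 35.2% of all genes. Without the 2 libraries of exercised males that hold yolk RNA the counts were 632 and 73. Among the members at 1 CPM or more in larvae, 73.0% were higher and 12.4% lower in exercised males, against 44.9% and 38.3% of all genes at that level. Of the 92 members at that level in larvae, females and males, 44 were higher and 24 lower (47.8% and 26.1%), where all such genes gave 33.7% and 47.2%. Both comparisons passed the same filter, so that the overlap of the lists rests partly on it. Of the 427 members that reached 1 CPM in males alone, 425 were higher in exercised males (99.5%, against 99.4% of all such genes). Of the 593 members higher in nonexercised males and tested in both, 591 were also higher in exercised males, a share of 99.7% of the first list and 93.1% of the second, and of 75 lower in nonexercised males 65 were also lower (86.7% and 94.2%). Among all genes the shares of the first lists were 97.3% and 92.0%. Only 1 member was called in opposite directions. Across the 748 members tested in both, the Log2FC values had a Pearson r of 0.965 and a Spearman rho of 0.946, as a description over genes of 4 separate sets of libraries.

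**Figure D1:**
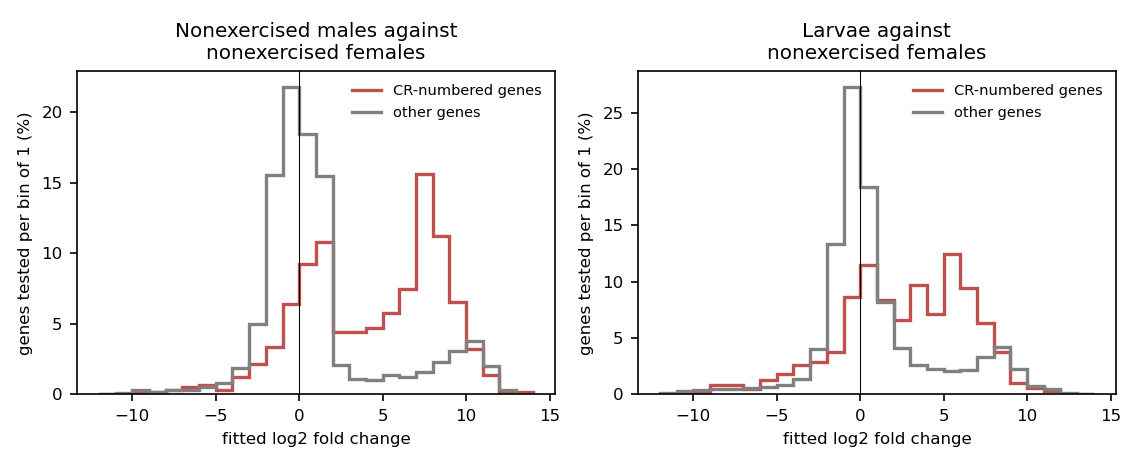
Share of genes tested (%) in each bin of 1 unit of fitted log2 fold change, for the CR-numbered genes (red) and the other genes (gray), in nonexercised males against nonexercised females (left) and larvae against nonexercised females (right). The members' medians lie at 5.23 and 3.05, while the other genes peak near 0 in both panels.

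Among the members of high level in males was CR9284, a noncoding RNA of 937 bases on 2R (21803402 to 21804338, release 6 of the genome as for all positions here) that overlaps no other gene. It had 228, 331 and 353 CPM in nonexercised males, against 0, 0.197 and 0.277 CPM in nonexercised females. No male library came near a female one, and the Log2FC was 10.93 ± 0.15 (adjusted p = 5.19e-18). Exercised males had 294, 367 and 407 CPM, against 0, 0 and 0.0461 CPM in exercised females, which held 2 counts in all, a ratio of 30717 with a counting interval of 8503 to 253649 (95%). CR32652 on X (12411018 to 12412181, 1164 bases) had 189, 253 and 300 CPM in nonexercised males, against 0.0473, 0.181 and 0.231 CPM in nonexercised females (Log2FC 10.58 ± 0.13, adjusted p = 1.49e-18). CR32658, also on X and overlapping Ten-a and CR43960, had 136, 192 and 216 CPM in nonexercised males, against 0.0502, 0.297 and 0.483 CPM in nonexercised females. CR44370 runs antisense to Fs, the gene of the activin inhibitor follistatin, and had 152, 185 and 268 CPM in nonexercised males, against 0.122, 0.301 and 0.416 CPM in nonexercised females. For CR9284, CR32652, CR32658 and CR44370 alike, larvae lay between the adult sexes, at medians of 45.8, 32.6, 30.9 and 73.6 CPM.

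Of the members with the largest differences between nonexercised males and females, most were at or near 0 in females. CR43279 on X (7494544 to 7495497) had 38.3, 63.1 and 72.1 CPM in nonexercised males and no count in any of the 8 nonexercised female libraries, so that it was at least 3657-fold higher in males, taking 3 counts over the set as the limit that a count of 0 allows. CR43835, which starts 4946 bases further along X, had 39.2, 57.8 and 75 CPM in nonexercised males, against 0, 0.0204 and 0.0828 CPM in nonexercised females. CR32661 and CR32660 are neighbors elsewhere on X. They had medians of 73.7 and 54.1 CPM in nonexercised males, and the highest nonexercised female libraries had 0.0946 and 0.251 CPM. Their summed levels differed 2752-fold (counting interval 1179 to 8478) for CR32661 and 1414-fold (686 to 3518) for CR32660. CR42850 on 2L had 43.3, 53.0 and 58.4 CPM in nonexercised males, against 0, 0 and 0.0462 CPM in nonexercised females, a ratio of 3217 (1100 to 15601). For members chosen by fold, the naming rule itself required sets without overlap.

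CR44388 and CR44389 lie 1101 bases apart on 2R and had nearly all of their counts in males. CR44388 (17187504 to 17187695), which the current annotation lists as the protein-coding gene CG44388, had 30.8, 36.7 and 47.0 CPM in nonexercised males and no count in any nonexercised or exercised female library. It was at least 2289-fold higher in nonexercised males and at least 2325-fold higher in exercised males, and 1 larval library held a single count. CR44389 (17188796 to 17189095) had 65.1, 88.6 and 96.1 CPM in nonexercised males, against 0, 0.0449 and 0.0828 CPM in nonexercised females, and at most 0.0891 CPM in a larval library. CR43912 on 3L (13290594 to 13291770) had 11.5, 16.2 and 16.7 CPM in nonexercised males and no count in nonexercised females or larvae, at least 951-fold higher than in these females. With larvae near 0, these 3 genes differed from CR9284 and CR43279, of which each larval library held more than 7 CPM.

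Members higher in females were fewer. Those with the largest differences had medians of at most 16.2 CPM in nonexercised females, while CR40469, described above and also higher in females by CPM, was far more abundant. CR43836, a locus of 76084 bases on X (8972908 to 9048991) whose span holds mir-31b, had 0, 0 and 0.188 CPM in nonexercised males, against 8.40, 16.2 and 20 CPM in nonexercised females. The summed levels were 517-fold lower in males (221 to 1593). In exercised males 6 libraries were near 0, but A31P replicate 2 had 3.18 CPM and R820W replicate 2 had 1.35 CPM, the libraries with yolk and eggshell RNA. The fitted Log2FC in exercised adults was -7.34 ± 0.70 with them and -11.01 ± 0.28 without them. Over the 40 members more than 4-fold lower in nonexercised males, exercised male libraries summed to 80.1 CPM in A31P replicate 2, 65.4 CPM in R820W replicate 2 and 41.2 to 54.4 CPM in the others, and the part of the yolk RNA in these levels was not tested.

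CR44357 spans 239347 bases of X (7166451 to 7405797), the longest member, and overlaps 16 genes, so its reads may belong to them. It had 0, 0 and 0.0946 CPM in nonexercised males, against 4.12, 7.50 and 10.5 CPM in nonexercised females. CR43887 on 3L had 0, 0.0223 and 0.0932 CPM in nonexercised males, against 4.79, 7.49 and 18.4 CPM in nonexercised females, and its exercised sets overlapped. CR45189 is antisense to zfh1, a transcription factor gene of the somatic gonad and heart, and had 0, 0.0231 and 0.204 CPM in nonexercised males, against 4.12, 5.46 and 6.24 CPM in nonexercised females. Each of these 3 genes was called lower in males in both comparisons.

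CR45601 is antisense to Yp1, a yolk protein gene, and had 0.0466, 0.0943 and 0.277 CPM in nonexercised males, against 4.09, 4.81 and 7.62 CPM in nonexercised females (Log2FC -5.35 ± 0.27, adjusted p = 1.75e-11). Its level in females may hold reads of Yp1, since the use of strand is not known. CR32027 overlaps Indy, a citrate transporter gene, and had 0.0461, 0.171 and 0.280 CPM in nonexercised males, against 3.90, 8.53 and 11.1 CPM in nonexercised females (Log2FC -5.48 ± 0.22, adjusted p = 1.15e-12). CR45433, between other genes on 3L, had 0, 0.0927 and 0.282 CPM in nonexercised males, against 2.71, 3.47 and 5.69 CPM in nonexercised females (Log2FC -4.99 ± 0.30, adjusted p = 1.63e-10).

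**Figure D2:**
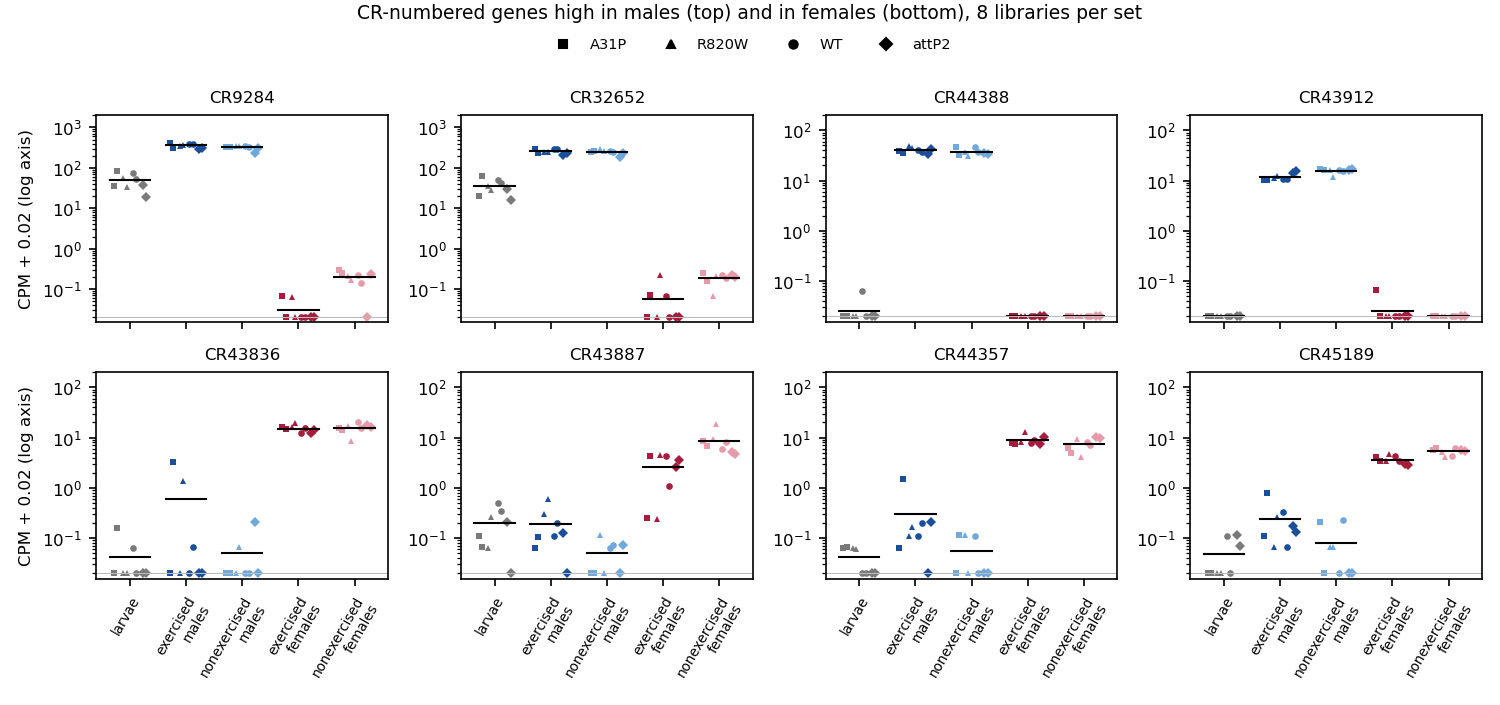
CPM plus 0.02 on a log axis in each of the 40 libraries for 4 members higher in males (CR9284, CR32652, CR44388, CR43912) and 4 lower in males (CR43836, CR43887, CR44357, CR45189), with sets from left to right larvae, exercised males, nonexercised males, exercised females and nonexercised females, symbols by genotype and a line at the mean of the 8 libraries. CR44388 has no count in any female library, and for CR43836 the exercised male libraries at 3.18 and 1.35 CPM stand above the other 6.

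**Figure D3:**
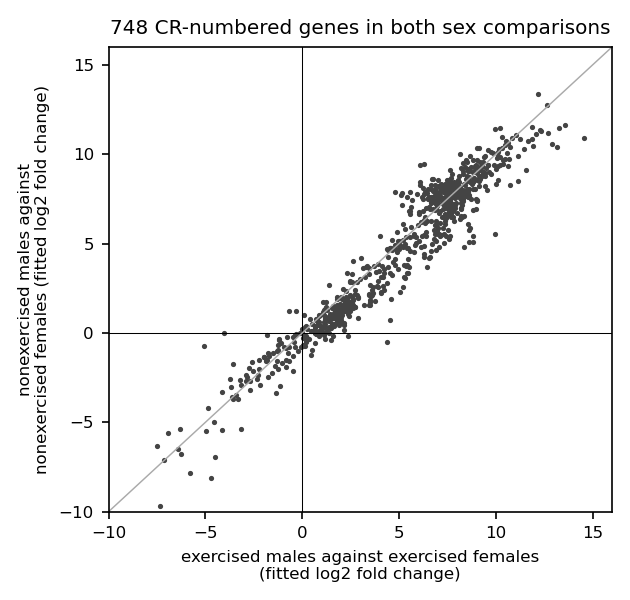
Fitted log2 fold change of males against females in exercised animals (horizontal) and in nonexercised animals (vertical), with 1 point for each of the 748 CR-numbered genes tested in both. Points run along the diagonal, with a Pearson r of 0.965 and 1 gene called in opposite directions.

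The share of members higher in males differed between chromosome arms. In nonexercised adults it was 88.5% of 174 members on 2L, 76.0% of 129 on 2R, 81.2% of 170 on 3L and 82.4% of 182 on 3R, but 56.4% of 94 on X. Lower in males were 2.87% on 2L, 8.53% on 2R, 12.4% on 3L, 6.04% on 3R and 29.8% on X. Genes that are no members leaned the same way by less, with 35.4% higher and 43.2% lower on X and between 42.3% and 45.8% higher on the other arms. By class, 406 of 487 long noncoding RNAs were higher and 40 lower, 150 and 22 of 195 antisense RNAs, and 28 and 12 of 48 pseudogenes. By overlap, 83.9% were higher among the 298 members that overlap no other gene, 79.3% of 299 that overlap genes on the other strand only and 69.7% of 152 that overlap a gene on the same strand, with median Log2FC values of 7.33, 4.77 and 1.92. Of members that overlap no gene and were higher in males, the nearest gene was also higher in 125 of 174 (71.8%), against 60.1% for other genes without overlap. Of those that overlap a gene and were higher, the overlapping gene was also higher in 148 of 300 (49.3%), against 55.8% for other genes. Of members lower in males, the nearest gene was also lower in 12 of 20 without overlap, where other genes gave 52.8%, and in 15 of 42 with overlap (35.7%, against 51.5%). These shares rest partly on the filter, since 427 members passed it in males alone and 418 of these (97.9%) were higher in males. The part of the filter in the differences between arms, classes and overlap groups was not tested.

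Larvae were then compared with nonexercised adults of each sex, which shared their flow cell. Against nonexercised females, 474 of 730 members were higher in larvae and 115 lower, with 39.4% and 33.3% of all genes, and the median Log2FC was 3.05 over members and 0.07 over all genes. Against nonexercised males, 113 of 751 were higher in larvae and 525 lower, with 34.5% and 39.5% of all genes, and medians of -1.45 and -0.03. Since the filter took members through males more often than through larvae, the 269 members at 1 CPM or more in larvae were also counted, of which 104 were higher and 105 lower in larvae than in nonexercised males (38.7% and 39.0%, where all genes at that level gave 39.4% and 32.8%). That group was chosen by the larval level, 1 side of the comparison. It leaves out members that passed in males alone, so its shares lean toward larvae by the choice. The comparisons with females and with males share the larval libraries.

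Of the 427 members that reached 1 CPM in males alone, 395 (92.5%) were lower in larvae than in nonexercised males, as the filter favors. Among all genes that reached it in males alone the share was 90.7%. Of the 406 such members tested against nonexercised females, 266 (65.5%) were higher in larvae, against 49.9% of all such genes. The male germline markers moved in the same order, since larvae held 128 to 524 CPM of them, and their part in these counts was not tested.

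Members highest in larvae included an RNA with a known tissue. CR43283 is cherub, a long noncoding RNA of neural stem cell lineages in the larval brain, on 3R (11247631 to 11256123). It had 23.6, 41.4 and 60.6 CPM in larvae, against 0.670, 1.49 and 2.61 CPM in nonexercised males and 0.0439, 0.137 and 0.334 CPM in nonexercised females. The Log2FC was 5.34 ± 0.23 against males (adjusted p = 1.38e-09) and 8.75 ± 0.22 against females (adjusted p = 8.06e-12). Cherub was also 3.37 ± 0.34 higher on the log2 scale in nonexercised males than in nonexercised females, with no overlap. CR43626, whose span on 3L (3249340 to 3254504) holds mir-282, had 75.8, 101 and 121 CPM in larvae, against 0.139, 0.318 and 0.606 CPM in nonexercised males and 1.27, 2.25 and 3.50 CPM in nonexercised females. Its Log2FC was 8.50 ± 0.20 against males (adjusted p = 1.10e-11) and 6.08 ± 0.12 against females (adjusted p = 1.16e-12).

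CR30029, annotated as a pseudogene on 2R (11246105 to 11246654), was abundant in larvae and near 0 in adults. Larvae held 125, 275 and 787 CPM, against 0, 0.0934 and 0.433 CPM in nonexercised males and 0, 0.144 and 0.251 CPM in nonexercised females. The larval libraries differed up to several fold among themselves, with 787 CPM in R820W replicate 2 and 125 CPM in R820W replicate 1 (Log2FC 12.02 ± 0.60 against males, adjusted p = 4.34e-09, and 11.69 ± 0.58 against females, adjusted p = 1.68e-09). CR44215, now the protein-coding gene CG44215, had 0.979, 10.6 and 16.5 CPM in larvae, with the lowest value again in R820W replicate 1, and 2 counts in nonexercised males and none in nonexercised females. CR45213 had 6.55, 9.80 and 16.2 CPM in larvae, against 0.0470, 0.163 and 0.358 CPM in nonexercised males and 0, 0.0895 and 0.260 CPM in nonexercised females.

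Other larval members were shared with males. CR43803, which overlaps beat-Ib on 2L, had 10.5, 26.0 and 42.2 CPM in larvae, against 37.2, 49.5 and 60.2 CPM in nonexercised males and 0, 0.0186 and 0.0502 CPM in nonexercised females. The larval level overlapped that of males, and was 1138-fold that of females by summed levels (counting interval 444 to 4177). CR43279 and CR43835 were likewise near 0 in females, with 18.2 and 18.8 CPM as larval medians.

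Members lower in larvae than in adults included abundant RNAs of both sexes. CR31781, a long noncoding RNA of 8955 bases on 2L (16869346 to 16878300), had 8.56, 13.7 and 19.7 CPM in larvae, against 149, 178 and 238 CPM in nonexercised males and 63.0, 111 and 146 CPM in nonexercised females. Its Log2FC was -3.27 ± 0.15 against males (adjusted p = 2.10e-09) and -2.32 ± 0.17 against females (adjusted p = 4.35e-08). CR31451, named mimi, had 6.95, 11.4 and 13.5 CPM in larvae, against 168, 235 and 283 CPM in nonexercised males and 64.1, 88.0 and 111 CPM in nonexercised females. Its Log2FC was -4.01 ± 0.12 against males (adjusted p = 4.18e-11) and -2.44 ± 0.13 against females (adjusted p = 2.81e-09). Both RNAs were higher in males than in females in either exercise state.

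CR45142 is antisense to Spt-I, a gene of sphingolipid synthesis. Of 8 larval libraries 1 had counts, 0.176 CPM, against 5.87, 8.70 and 9.59 CPM in nonexercised males and 4.2, 5.00 and 7.44 CPM in nonexercised females. CR43250 on 3L had no count in larvae, against 0.162, 0.552 and 0.876 CPM in nonexercised males and 0.446, 2.77 and 7.38 CPM in nonexercised females, and was at least 29.9-fold lower in larvae than in males and at least 211-fold lower than in females. CR45013, which overlaps Pde1c, and CR43684, which overlaps Sytbeta, were near 0 in larvae and in females alike, with medians of 31.8 and 28.4 CPM in nonexercised males and single larval values of at most 0.0475 CPM.

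**Figure D4:**
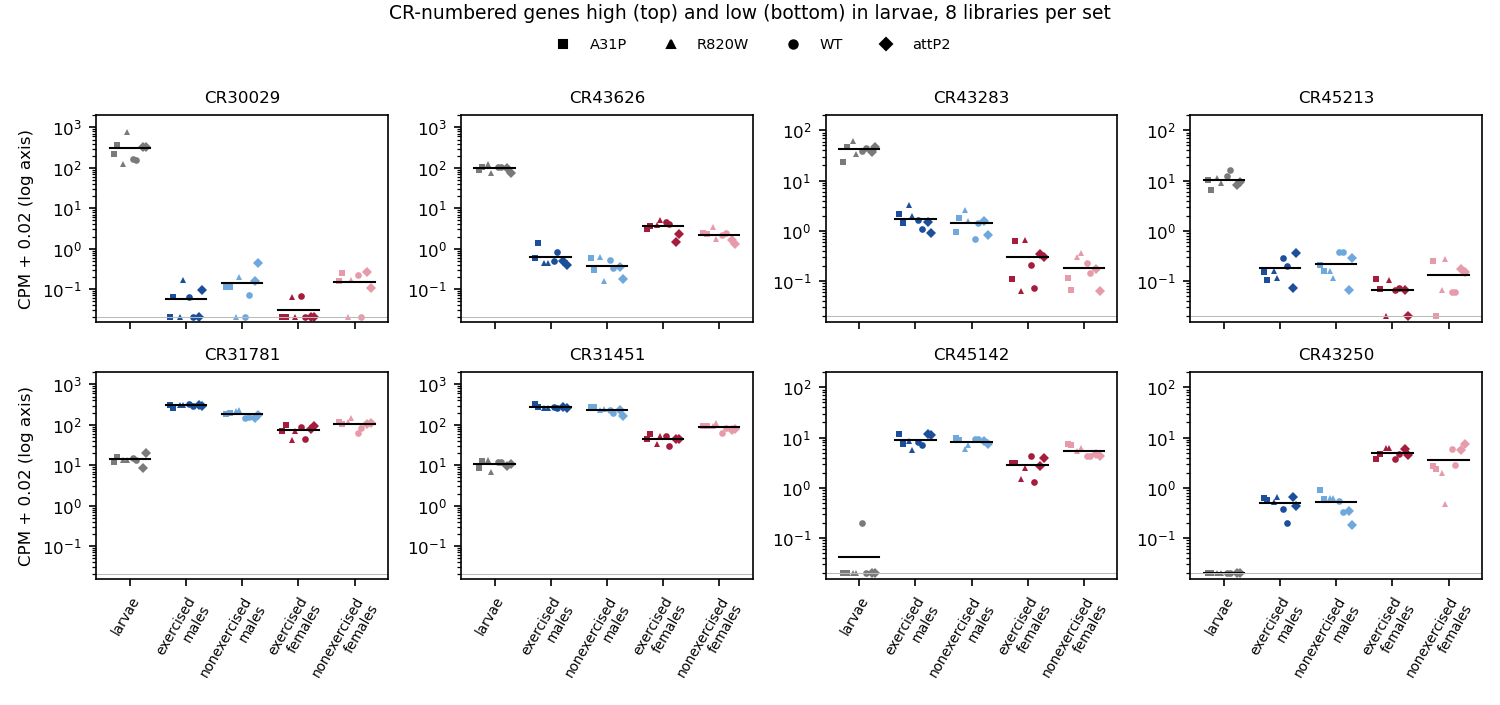
CPM plus 0.02 on a log axis in each of the 40 libraries for 4 members high in larvae (CR30029, CR43626, CR43283, CR45213) and 4 low in larvae (CR31781, CR31451, CR45142, CR43250), with sets from left to right larvae, exercised males, nonexercised males, exercised females and nonexercised females, symbols by genotype and a line at the mean of the 8 libraries. CR30029 lies at 125 CPM or more in each larval library and below 0.5 CPM in each adult library.

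Exercised and nonexercised flies differed in fewer members. In females, 36 of 667 were higher and 123 lower after exercise, with 14.4% and 20.9% of all genes, and the median Log2FC of members was -0.40. In males, 72 of 750 were higher and 68 lower, with 5.34% and 5.29% of all genes. The counts in males moved with the scaling, to 172 higher and 23 lower with library totals alone, which shifts the median of all genes from 0.01 to 0.31. Genes of at most 250 bases moved with these comparisons as a class: 148 of 165 such genes of the table (89.7%) were higher in exercised females than in nonexercised females and 105 of 169 (62.1%) lower in exercised males than in nonexercised males. Of members that short, 4 of 9 were higher in exercised females, and 6 of 12 were higher and 2 lower in exercised males. The part of transcript length in the values of short members was not tested.

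CR43603 is such a short gene, of 186 bases on 3L, and overlaps CG10576. It had 35.6, 61.7 and 88.5 CPM in exercised females, against 4.02, 6.96 and 10.1 CPM in nonexercised females (Log2FC 3.30 ± 0.23, adjusted p = 1.91e-07). In males it had 1.82, 2.23 and 3.55 CPM after exercise, against 3.08, 4.10 and 5.71 CPM without, with an overlap of the sets (Log2FC -1.08 ± 0.14, adjusted p = 5.10e-05). CR43604, 201 bases on 2L overlapping dachs, the gene of an atypical myosin, had 0.946, 1.10 and 1.88 CPM in exercised males, against 8.47, 13.0 and 17 CPM in nonexercised males (Log2FC -3.65 ± 0.13, adjusted p = 9.04e-10). In females its sets overlapped, at 10.3, 16.7 and 25.1 CPM after exercise and 9.11, 11.6 and 22.2 CPM without.

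Longer members also differed in females. CR45631 on 3R, 673 bases, had 8.46, 14.2 and 26.7 CPM in exercised females, against 1.24, 2.17 and 4.98 CPM in nonexercised females (Log2FC 3.00 ± 0.17, adjusted p = 3.77e-08). CR43837, which overlaps the innexin gene Inx7 on X, had 7.69, 9.71 and 13.1 CPM in exercised females, against 1.52, 3.39 and 3.66 CPM in nonexercised females (Log2FC 1.90 ± 0.14, adjusted p = 2.34e-07). CR45046 overlaps 4 genes on 3R, among them fit, a fat body gene expressed more in females, and had 0, 0.205 and 0.802 CPM in exercised females, against 2.56, 5.22 and 11.4 CPM in nonexercised females (Log2FC -4.33 ± 0.32, adjusted p = 2.92e-07). CR44035 had 0.345, 0.960 and 1.65 CPM in exercised females, against 1.82, 3.89 and 4.63 CPM in nonexercised females, and CR44754 had 0.629, 1.61 and 2.34 CPM in exercised females, against 3.75, 5.95 and 7.02 CPM in nonexercised females.

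In males, CR45197, which overlaps sgg, the gene of a glycogen synthase kinase, had 10.5, 15.1 and 16.5 CPM after exercise, against 0, 2.22 and 5.45 CPM without (Log2FC 2.54 ± 0.51, adjusted p = 0.00161), and no count in any female library. CR30121 had 4.66, 6.01 and 9.21 CPM in exercised males, against 0.313, 1.23 and 3.62 CPM in nonexercised males (Log2FC 1.96 ± 0.33, adjusted p = 0.000472). CR45813, antisense to Cct1, a gene of phospholipid synthesis, had 2.66, 3.34 and 4.03 CPM in exercised males, against 0.710, 1.29 and 1.69 CPM in nonexercised males (Log2FC 1.17 ± 0.14, adjusted p = 2.53e-05). CR45231, next to the odorant binding protein gene Obp56g on 2R, had 1.30, 1.87 and 3.74 CPM in exercised males, against 4.68, 6.07 and 10.1 CPM in nonexercised males (Log2FC -1.90 ± 0.18, adjusted p = 3.96e-06).

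All members tested for exercise were also compared for a different change in the sexes. The interaction was called for 124 of 750 members with a higher and 21 with a lower Log2FC in males than in females, against 20.6% and 9.17% of all genes. CR43334, the host transcript of the microRNA bantam, which promotes growth and blocks cell death, was among those with the higher value in males. It had 51.1, 58.0 and 68.4 CPM in exercised males, against 25.4, 32.7 and 42.4 CPM in nonexercised males (Log2FC 0.55 ± 0.07, adjusted p = 8.17e-05). In females the values were 12.3, 18.6 and 21.4 CPM after exercise and 21.3, 29.0 and 37.9 CPM without, with a Log2FC of -0.56 ± 0.12 (adjusted p = 0.00111) and sets that overlapped by little. The difference of the changes was 1.10 ± 0.16 (adjusted p = 1.66e-05), and the call in females was lost without WT nonexercised female replicate 2.

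Genotype was compared within each set of 8 libraries, for WT, A31P and R820W against attP2 and for A31P and R820W against WT. In larvae no member of 713 was called in any of the 5 comparisons by edgeR (0.0449% of all genes), while 111 had an unadjusted p-value under 0.05 in at least 1 of them and DESeq2 called 9. In nonexercised females 1 of 593 was called (2.63% of all genes), and 21 with the replicate number, which is also the lane in these libraries, as a block. In exercised females 2 of 608 were called (0.329%, against 0.302% of all genes), and 0 with that block although these libraries share a lane. Nonexercised males had 16 members called of 749 (2.14%, against 1.94% of all genes), and exercised males had 18 of 749 (2.40%, against 1.15% of all genes). In all, 26 of the 751 members tested were called in at least 1 set. These were 10 of 174 tested on 2L, 6 of 129 on 2R, 6 of 170 on 3L, 1 of 184 on 3R and 3 of 94 on X. All genes were not counted by arm or over the sets together for genotype, so no lean of the members toward an arm can be read from these counts. Of the 70 calls, 65 set a line against attP2 and 5 a mutant against WT. With 2 libraries a group the calls were fragile: 10 of the 70, of 5 members, remained with each library of their fit left out in turn, and without replicate 2 of A31P and R820W the count in exercised males was 105.

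CR45271, antisense to CG42700 on 2R, was present in A31P and WT and near 0 in R820W and attP2. In exercised males its replicates had 3.90 and 3.14 CPM in A31P, 0.185 and 0.193 CPM in R820W, 3.02 and 3.37 CPM in WT, and 0 and 0.0746 CPM in attP2. In nonexercised males they had 1.57 and 2.32 CPM in A31P, 0 and 0.0463 CPM in R820W, 2.46 and 2.61 CPM in WT, and 0 and 0 CPM in attP2. Both WT and A31P were called above attP2 in either set of males, with adjusted p-values of 0.00409 for A31P and 0.00289 for WT in nonexercised males, and R820W was called below WT (adjusted p = 0.00342 in nonexercised and 0.0412 in exercised males). Both calls of R820W against WT, and that of WT against attP2 in exercised males, were lost with 1 library or another left out. Larvae showed the same split with smaller counts, at 0.579 and 1.63 CPM in A31P, 0 and 0 CPM in R820W, 1.01 and 1.09 CPM in WT, and 0.0468 and 0 CPM in attP2, without a call.

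CR45893 on 3L, which overlaps CG4998, split the lines otherwise. In nonexercised males it had 0.138 and 0.331 CPM in A31P, 2.24 and 2.82 CPM in R820W, 2.77 and 1.63 CPM in WT, and 0 and 0.0541 CPM in attP2. R820W was above attP2 with an adjusted p of 0.0055 and WT with 0.00501, and the WT call was lost with 1 library or another left out. In exercised males the order was the same, with 0.0439 and 0 CPM in A31P, 1.75 and 2.17 CPM in R820W, 2.67 and 2.37 CPM in WT, and 0 and 0.149 CPM in attP2. CR45823, which overlaps the glypican gene dally on 3L, was higher in both mutant lines than in attP2. In nonexercised males it had 5.03 and 5.82 CPM in A31P, 4.10 and 4.77 CPM in R820W, 0.938 and 1.02 CPM in WT, and 1.03 and 1.19 CPM in attP2. Its Log2FC against WT was 2.40 ± 0.23 for A31P (adjusted p = 0.00172) and 2.11 ± 0.23 for R820W (adjusted p = 0.00341). In exercised males it had 7.24 and 4.86 CPM in A31P, 4.66 and 4.68 CPM in R820W, 1.33 and 1.28 CPM in WT, and 0.678 and 0.895 CPM in attP2, called against attP2 for A31P (Log2FC 2.89 ± 0.27, adjusted p = 0.0107) and R820W (Log2FC 2.62 ± 0.27, adjusted p = 0.0144) but for neither against WT, and each of these calls was lost without 1 or the other attP2 library. Without WT replicate 1 the nonexercised calls against WT were lost (adjusted p = 0.0774 for A31P and 0.0857 for R820W), and that for R820W also without WT replicate 2 (adjusted p = 0.0612).

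Other members separated the 3 lines with a transgene from attP2. CR42844 on 2L had 3.33 and 2.62 CPM in A31P, 3.32 and 3.67 CPM in R820W, 3.82 and 4.06 CPM in WT, and 0.522 and 0.559 CPM in attP2 exercised males (Log2FC 2.84 ± 0.23 for WT against attP2, adjusted p = 0.00788). In nonexercised males the lines lay between 2.22 and 3.14 CPM and attP2 at 0.188 and 0.270 CPM. The calls of CR42844 in nonexercised males remained with each library left out in turn, and those in exercised males did not. CR45286, also on 2L, had 4.03 and 3.27 CPM in A31P, 3.46 and 2.90 CPM in R820W, 3.69 and 4.28 CPM in WT, and 1.25 and 1.12 CPM in attP2 exercised males. None of its calls remained with each library left out in turn. CR43684 ran the other way, with 13.4 and 12.1 CPM in A31P, 13.8 and 13.0 CPM in R820W, 15.8 and 16.5 CPM in WT, and 43.5 and 45.0 CPM in attP2 exercised males (Log2FC -1.82 ± 0.09 for A31P, -1.65 ± 0.09 for R820W and -1.46 ± 0.09 for WT). In nonexercised males it had 26.1 and 28.2 CPM in A31P, 27.4 and 23.2 CPM in R820W, 28.7 and 28.5 CPM in WT, and 40.3 and 40.9 CPM in attP2, called for A31P (Log2FC -0.67 ± 0.12, adjusted p = 0.0329) and R820W (Log2FC -0.76 ± 0.12, adjusted p = 0.0217) but not for WT. The study describes the transgenic lines and attP2 as co-isogenic.

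Genotype differences in females were few. CR43651, which holds mir-14, a microRNA of insulin signaling and fat metabolism, had 23.2 and 22.4 CPM in A31P, 21.6 and 27.7 CPM in R820W, 23.9 and 22.4 CPM in WT, and 13.3 and 13.7 CPM in attP2 exercised females, called for R820W (Log2FC 0.82 ± 0.13, adjusted p = 0.0414) and WT (Log2FC 0.86 ± 0.13, adjusted p = 0.0338). Both calls of CR43651 were lost with the replicate block (adjusted p = 0.211 for R820W and 0.180 for WT), with the filterByExpr filter (0.0700 and 0.0685) and without any 1 library of A31P, R820W or attP2. CR31781 had 118 and 103 CPM in A31P, 116 and 146 CPM in R820W, 63.0 and 81.3 CPM in WT, and 108 and 113 CPM in attP2 nonexercised females, and was called for R820W against WT (Log2FC 0.95 ± 0.20, adjusted p = 0.0429), a call lost with filterByExpr (adjusted p = 0.0704) and without any 1 library other than R820W replicate 1. CR44080 and CR44602 on 2L had means below 1 CPM in larvae, females and males and were not tested. CR44080 had 1.23 and 0.989 CPM in A31P, 1.06 and 1.59 CPM in R820W, 1.51 and 1.32 CPM in WT, and 0.104 and 0.0746 CPM in attP2 exercised males. CR44602 had 0.219 and 0.129 CPM in A31P, 0.231 and 0.145 CPM in R820W, 0.133 and 0.137 CPM in WT, and 1.46 and 1.08 CPM in attP2 exercised males.

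**Figure D5:**
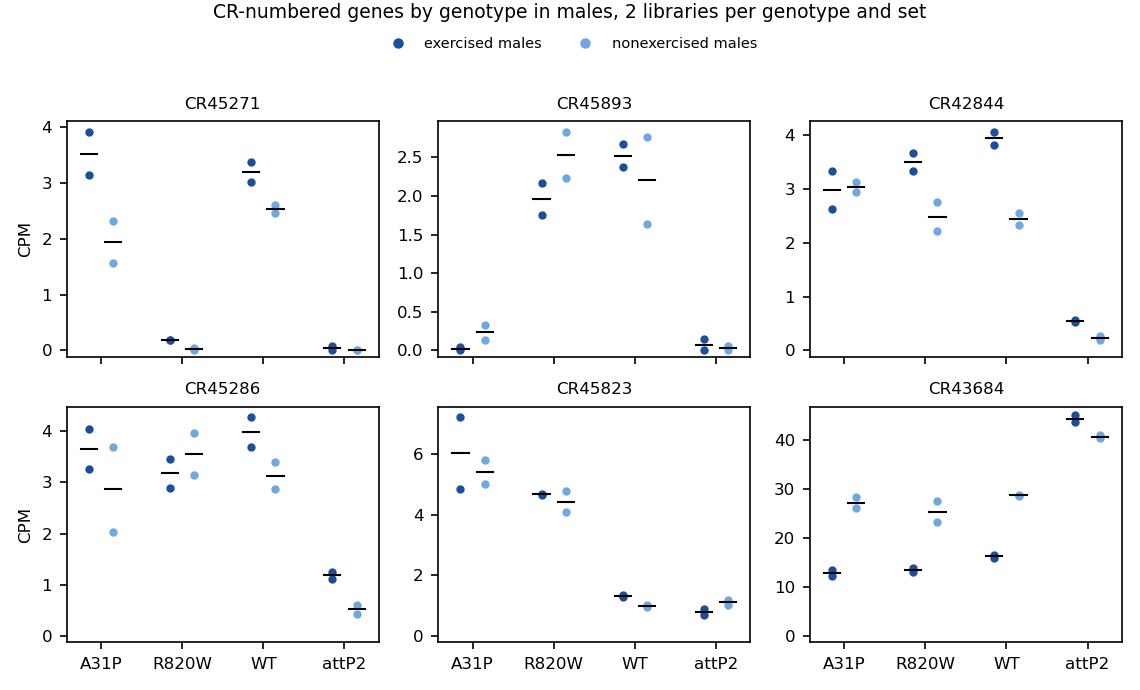
CPM of 6 members (CR45271, CR45893, CR42844, CR45286, CR45823, CR43684) in each male library, by genotype from left to right A31P, R820W, WT and attP2, with exercised and nonexercised males as separate symbols. CR45271 is near 0 in R820W and attP2, CR45823 lies at 4.10 CPM or more in A31P and R820W and at 1.33 CPM or less in WT and attP2, and CR43684 is above 40 CPM in attP2 alone.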

How the data were processed

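Total RNA of whole flies was depleted of ribosomal RNA and made into strand-marking libraries. Demultiplexing by the authors used bcl2fastq, quality control FastQC and adapter removal Cutadapt. Remaining ribosomal reads were taken out with TopHat, and the rest were counted on release 6 of the fly genome in CLC Genomics Workbench. They deposited raw read counts per gene and also TPM values, which set counts against length and library. Counting by strand and of reads with several hits is not given in the sources used here. Every per-sample column used was matched to a sample by its name. TPM served for levels per length, and no test used it.

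Counts were tested as deposited with the quasi-likelihood F test of edgeR (4.0.16, R 4.3.3), two-sided, after TMM normalization, on genes with a mean of 1 CPM or more in larvae, females or males, with the group of genotype, stage, sex and exercise as factor and contrasts over the mean of the 4 genotypes. P-values were adjusted over all genes tested by Benjamini and Hochberg, and a gene was called when its Log2FC lay beyond 0.5 in either direction and its adjusted p-value below 0.05. The SE is the Log2FC divided by the square root of F. Where a genotype group of the lower set had no count, the ratio of summed counts, scaled to the library totals, is given with a 95% counting interval, or a bound taking 3 counts over the set. Such intervals cover counting error only. Library depth, the sum of counts on genes, ran from 18493813 to 26917796.

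The members and all gene lists were chosen with earlier results of these data known. Named were the 10 members of highest mean CPM, the 8 highest and 8 lowest by Log2FC for sex, 5 and 5 for each stage comparison and 3 and 3 for exercise in each sex (mean of 3 CPM or more in the higher set, sets without overlap), up to 5 per set called in 2 or more lines against attP2 with the same sign or in a mutant line against WT, and CR45271, CR44080, CR44602 and CR43334. Other members were named after their values were seen. Alternatives were library totals, DESeq2 (1.42.0), a replicate block, other low-value filters and leaving out libraries. The tests were tried on simulated counts. No sequences were used here.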

Additional observations from a re-analysis of the deposited data

Results flagged for a closer look

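The exercise change differed between the sexes for 16 of the 57 named members, by the interaction term of edgeR over the 32 adult libraries, given as the Log2FC in males minus that in females, which was above 0 for 12 and below 0 for 4. CR43603 had -4.38 ± 0.31 (adjusted p = 1.51e-09) and CR43604 -4.08 ± 0.27 (adjusted p = 8.04e-10), both genes of at most 250 bases. CR43250 had -1.24 ± 0.36 (adjusted p = 0.00756) and CR34335 -0.87 ± 0.16 (adjusted p = 0.000140). Of the abundant members, CR42862 had 1.10 ± 0.11 (adjusted p = 2.80e-07), CR31781 0.77 ± 0.16 (adjusted p = 0.000713) and CR31451 0.69 ± 0.15 (adjusted p = 0.00103). CR9284 had 3.56 ± 0.72 (adjusted p = 0.000535) and CR32652 2.25 ± 0.64 (adjusted p = 0.00673). Both genes were near 0 in females, so these values rest on few female counts and their size is uncertain.

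CR43334, the host of bantam, had 1.10 ± 0.16 (adjusted p = 1.66e-05), CR45813 1.53 ± 0.33 (adjusted p = 0.000986) and CR44754 1.12 ± 0.21 (adjusted p = 0.000196). CR44587 had 2.03 ± 0.65 (adjusted p = 0.0140) and CR45142 0.56 ± 0.22 (adjusted p = 0.0416). CR45189 had 2.37 ± 0.85 (adjusted p = 0.0257) and CR44035 2.15 ± 0.70 (adjusted p = 0.0148). Without replicate 2 of A31P and of R820W exercised males, which hold yolk RNA, CR45189 had 1.44 ± 0.90 (adjusted p = 0.193) and CR44035 1.62 ± 0.92 (adjusted p = 0.150), while the other 14 kept their call. With each adult library left out in turn, 10 of the 16 kept their call. CR9284 lost it without attP2 nonexercised female replicate 2 (2.47) and CR43250 without attP2 nonexercised male replicate 1 (-1.10). CR44587 lost it without A31P nonexercised female replicate 2 (1.25) and without attP2 nonexercised female replicate 2 (1.58). CR44035 lost it without A31P exercised male replicate 2, WT exercised male replicate 1 or attP2 exercised male replicate 2 (1.11 to 1.70), and CR45189 without A31P or R820W exercised male replicate 2, WT exercised male replicate 1 or attP2 nonexercised male replicate 1 (1.81 to 2.37). CR45142 lost it without any of 22 libraries (0.41 to 0.57). With library totals alone, CR34335 (-0.37) and CR43250 (-0.73) were not called. Exercise and flow cell cannot be told apart in any of these values.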

How the results depend on the processing

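Counts of members moved mostly with the low-value filter. For males against females without exercise, filterByExpr gave 987 higher and 119 lower, no filter 1338 and 166, and a mean of 5 CPM 140 and 32. With exercise these were 1096 and 107, 1531 and 148, and 152 and 30. For larvae against females, no filter gave 923 higher and 229 lower and 5 CPM 111 and 46. For larvae against males, filterByExpr gave 180 and 838, no filter 245 and 1051, and 5 CPM 41 and 133. For exercise in females, library totals gave 23 higher, no filter 59, and 5 CPM 15 higher and 53 lower. For exercise in males, library totals gave 172 higher and 23 lower, filterByExpr 131 and 122, no filter 147 and 127, and 5 CPM 17 and 17. Library totals gave 213 higher and 7 lower for the interaction. The cause of these moves was not tested beyond the number of genes that each filter admits.

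Genotype counts were the least stable. DESeq2 gave 9 in larvae. In nonexercised females library totals gave 9, DESeq2 11, filterByExpr 0 and no filter 7. In exercised females DESeq2 gave 6, filterByExpr 0 and no filter 5. In nonexercised males library totals gave 32, DESeq2 26 and no filter 32. In exercised males filterByExpr gave 31, and leaving out both libraries with yolk RNA, an alternative chosen after seeing the data, gave 105. The replicate block gave 21 in nonexercised and 0 in exercised females, and changed no other count by over 1.5 times. In larvae and nonexercised adults the block is also the lane. Deviations of same-numbered libraries correlated at -0.37 to 0.68 over 6 pairs in each set. Summed levels scaled by TMM were 7108 CPM in larvae, 7219 CPM in exercised males and 3877 CPM in nonexercised females.

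Leaving out 1 library at a time gave 588 to 597 higher and 73 to 78 lower for sex without exercise, 629 to 636 and 68 to 72 with exercise, 447 to 482 and 104 to 116 for larvae against females, and 109 to 116 and 515 to 532 for larvae against males. Exercise gave 31 to 38 and 103 to 138 in females, 63 to 76 and 60 to 80 in males, and 105 to 145 and 18 to 26 for the interaction. Genotype counts were 0 to 0 in larvae, 0 to 55 in nonexercised females (55 without R820W replicate 1), 0 to 8 in exercised females (8 without WT replicate 1), 6 to 73 in nonexercised males (6 without A31P replicate 1, 73 without attP2 replicate 2) and 2 to 118 in exercised males (2 without attP2 replicate 1, 118 without A31P replicate 1). Calls of single members were also followed for the named members, the microRNA hosts and members with a newer name, together with all genotype calls of members. Of these 446 calls, 396 were kept under every other setting and 347 with each library left out, and 0 were reversed. Low counts limit members near 1 CPM.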

Other observations

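Among members whose span holds a microRNA, 22 were listed after the data had been seen. The ones given here were picked after their values were seen, so they do not stand for the 22 as a group. CR43459, which holds mir-277 and mir-34, had 4.14, 5.71 and 11.2 CPM in larvae as lowest, median and highest value, against 108, 124 and 133 CPM in nonexercised males and 40.2, 56.9 and 64.8 CPM in nonexercised females (Log2FC -3.87 ± 0.13, adjusted p = 1.62e-10 against males). CR31044, which holds mir-279 and mir-996, had 5.31, 7.86 and 8.89 CPM in nonexercised males, against 21.3, 26.0 and 28.3 CPM in nonexercised females (Log2FC -1.67 ± 0.09, adjusted p = 5.17e-11), and exercised sets overlapped. CR45919, which holds mir-124, a microRNA of the nervous system, had 3.59, 3.88 and 5.14 CPM in nonexercised males, against 0.979, 1.64 and 2.64 CPM in nonexercised females (Log2FC 1.38 ± 0.16, adjusted p = 7.89e-07). CR44175, which holds mir-997, had 5.69, 7.69 and 10.3 CPM in nonexercised males, against 0, 0 and 0.0462 CPM in nonexercised females. Host transcripts need not follow the mature microRNAs, which these libraries do not measure.

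CR44404 and CR45045, singled out after their values were seen, are now the protein-coding genes IBIN and CG45045, and both are under 250 bases. IBIN, named for its induction by infection, had 2.69, 6.52 and 29.0 CPM in exercised males, against 0, 0 and 6.16 CPM in nonexercised males. CR45045 had 13.2, 29.9 and 71.4 CPM in exercised males, against 0.0541, 0.571 and 32.2 CPM in nonexercised males. In both genes the highest nonexercised male library was attP2 replicate 1, so that the sets overlapped.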
